A study of Mus musculus with 11 samples.

Results

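The wide H3K9me3-only domains are stretches of 5 kb or more that carry trimethylated lysine 9 of histone H3 in mouse E14 embryonic stem cells, with no called peak of H3K4me1 or H3K27me3 on them. They were taken from the deposited unified H3K9me3 peak list as the intervals on chromosomes 1 to 19 that are at least 5 kb wide and share no base with a unified peak of either other mark. Of 20576 unified H3K9me3 peaks on these chromosomes, 2335 reached 5 kb. Among those, 256 touched an H3K4me1 peak, 29 an H3K27me3 peak and 2 both, which left 2052 domains. They made up 9.97% of the peaks and 31.7% of the bases under peaks, 16.9 Mb in all. The domains were chosen by measured values, the width and overlap of called peaks, so neither these nor the read depth inside the domains is a finding. DNA methylation was not used by the rule.

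The data came from CUT&Tag-BS, in which an antibody brings a protein A-Tn5 transposase to chromatin with a given mark and the cut fragments are bisulfite converted, so that methylated and unmethylated cytosines can be told apart on the marked DNA. All 11 samples were E14 cells of 129/Ola background, grown in serum with leukemia inhibitory factor, without any genetic change or treatment named in the labels. H3K9me3 was profiled from 250000 cells with bisulfite in run 1 (35 bp reads) and run 2 (75 bp reads) and without bisulfite in 1 control. H3K4me1 was profiled in the same way, and H3K27me3 from 4000, 20000, 100000 and 250000 cells with bisulfite and from 250000 cells without. The labels do not say that run 1 and run 2 of a mark are separate cultures. They may be repeat sequencing of 1 library, so each mark counts as 1 sample without a biological replicate, and no test between marks as conditions was possible.

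H3K9me3 is the histone mark of constitutive heterochromatin. In embryonic stem cells much of it is laid down by the methyltransferase SETDB1, which the corepressor TRIM28 and KRAB zinc finger proteins bring to endogenous retroviruses, to imprinted control regions and to some gene clusters. DNA at such sites is commonly methylated as well, whereas CpG islands at active promoters are commonly unmethylated and carry H3K4 methylation. Repeat annotation was not used here, so which domains hold retroviral copies was not analysed.

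The sequences printed here are promoters, because no genome sequence was used. Low methylation within the domains also occurred outside promoters, as described below. The domains themselves were mostly methylated, and a few promoters in them were almost free of methylation while others were highly methylated. Each stretch below runs from 250 bases before to 50 bases after a transcription start, as given by RefSeq for GRCm38.p6, 5′ to 3′ on the gene's strand, with every CG in capitals. Of the 113 RefSeq promoters wholly inside domains, only those of protein-coding genes with at least 20 calls were considered for printing. Among these, promoters with the most CpGs and with the lowest and highest methylation are shown. They need not be the extremes of all 113.
Actr10, chr12:70937607-70937906, plus strand: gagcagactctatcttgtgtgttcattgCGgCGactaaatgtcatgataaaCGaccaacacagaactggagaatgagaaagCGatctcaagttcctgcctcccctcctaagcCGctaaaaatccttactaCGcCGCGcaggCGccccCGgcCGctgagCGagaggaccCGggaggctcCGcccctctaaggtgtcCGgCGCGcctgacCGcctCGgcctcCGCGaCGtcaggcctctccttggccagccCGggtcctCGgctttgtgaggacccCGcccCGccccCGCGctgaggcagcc
Trim24, chr6:37870561-37870860, plus strand: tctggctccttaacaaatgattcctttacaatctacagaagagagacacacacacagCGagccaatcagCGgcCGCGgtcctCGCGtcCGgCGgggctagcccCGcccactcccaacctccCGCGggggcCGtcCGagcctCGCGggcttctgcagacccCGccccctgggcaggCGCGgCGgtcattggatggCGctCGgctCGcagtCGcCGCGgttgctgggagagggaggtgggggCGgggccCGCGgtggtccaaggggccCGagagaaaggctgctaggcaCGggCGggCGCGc
Ptpn1, chr2:167932077-167932376, plus strand: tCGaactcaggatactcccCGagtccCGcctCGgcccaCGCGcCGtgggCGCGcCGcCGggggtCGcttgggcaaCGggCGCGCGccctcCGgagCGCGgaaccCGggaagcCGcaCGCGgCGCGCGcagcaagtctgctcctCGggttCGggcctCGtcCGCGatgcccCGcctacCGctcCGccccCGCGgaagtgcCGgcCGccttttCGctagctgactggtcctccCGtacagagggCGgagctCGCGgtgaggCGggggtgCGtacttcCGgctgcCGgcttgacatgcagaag
Zfp629, chr7:127614818-127615117, minus strand: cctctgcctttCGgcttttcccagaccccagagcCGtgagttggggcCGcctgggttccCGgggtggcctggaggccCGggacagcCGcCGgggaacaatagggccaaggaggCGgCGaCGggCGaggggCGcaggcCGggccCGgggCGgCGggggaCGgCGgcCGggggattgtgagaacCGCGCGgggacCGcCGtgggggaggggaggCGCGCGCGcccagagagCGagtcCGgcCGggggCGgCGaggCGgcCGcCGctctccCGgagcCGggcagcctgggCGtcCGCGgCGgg
Gm3325, chr13:62015675-62015974, plus strand: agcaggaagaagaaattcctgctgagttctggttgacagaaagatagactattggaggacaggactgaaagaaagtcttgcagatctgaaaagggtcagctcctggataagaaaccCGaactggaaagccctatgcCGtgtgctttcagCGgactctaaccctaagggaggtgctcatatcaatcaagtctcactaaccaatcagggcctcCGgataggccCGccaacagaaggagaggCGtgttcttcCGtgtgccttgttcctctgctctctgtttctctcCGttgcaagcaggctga
Nnat, chr2:157559828-157560127, plus strand: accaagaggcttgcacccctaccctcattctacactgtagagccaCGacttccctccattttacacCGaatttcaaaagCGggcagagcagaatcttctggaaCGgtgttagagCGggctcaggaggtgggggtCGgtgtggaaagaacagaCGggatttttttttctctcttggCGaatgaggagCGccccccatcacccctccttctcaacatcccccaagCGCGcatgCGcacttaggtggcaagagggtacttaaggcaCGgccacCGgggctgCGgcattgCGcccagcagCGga
The first 4 are rich in CG, with 28, 33, 47 and 42 pairs in 300 bases. Gm3325 has 8 and Nnat has 17.

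Methylation across the domains was high. In H3K9me3 run 2, 88.3% of 730547 CpG calls in the domains were methylated (Wilson 95% interval 88.22 to 88.37%), with 3.93 calls per CpG, and the level ranged from 83.6 to 90.4% over the 19 chromosomes. Run 1 gave 87.9% of 217054 calls (87.71 to 87.99%). The 16956 narrower H3K9me3-only peaks, with a median width of 1457 bp, stood at 85.7% in both runs, and 10 kb tiles outside all peaks at 83.3% in run 2. The domains were above the narrower peaks on 18 of 19 chromosomes in run 2 and on 16 in run 1, and above the tiles on 19 of 19. The 283 wide H3K9me3 peaks that touch another mark had 74.0% (73.76 to 74.30%). These intervals cover counting error only, since calls on 1 fragment and amplified copies are not independent molecules.

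All 2052 domains had at least 20 calls in run 2, from 25 to 6684 with a median of 285. The median domain level was 89.8%, the quartiles were 85.1 and 92.6%, and 86.7% of domains lay over 80%. The lowest domain stood at 34.0% and the highest at 100%, and 13 domains (0.634%) lay under 50%. Among the 13443 narrower H3K9me3-only peaks with as many calls, the median was the same 89.8%, but 403 lay under 50% and the lower quartile was 82.4%. From the 5th to the 95th percentile the domains spanned 69.8 to 95.2% and the narrower peaks 57.8 to 98.1%, a wider spread around the same median. The narrower peaks had fewer calls each (a median of 51 among those compared with their flanks), and the part of counting error in their spread was not tested. Over the 2011 domains with 20 calls in each run, the level differed between runs by a median of 2.48 points.

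**Figure D1:**
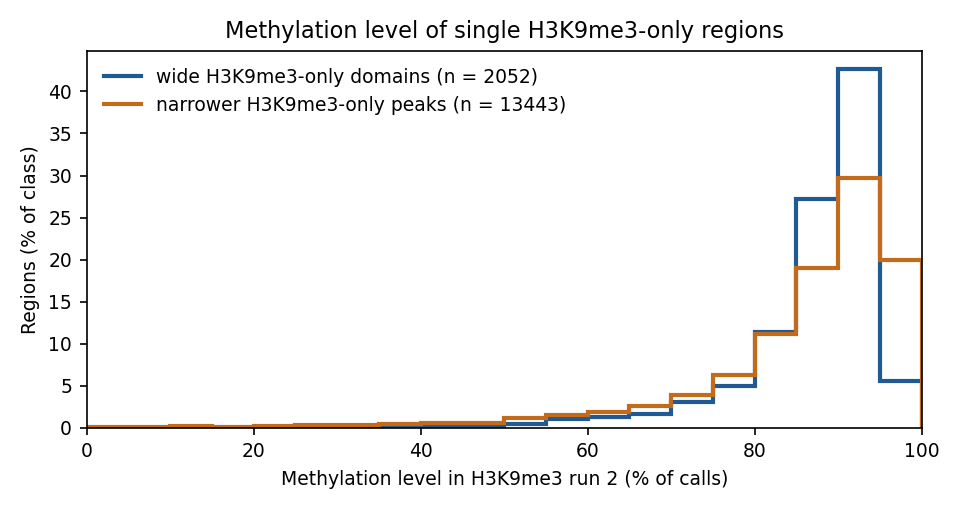
Share of regions of each class (y axis, percent) by methylation level in H3K9me3 run 2 in steps of 5 points (x axis, percent of calls), for regions with at least 20 calls. Of the wide domains, 42.7% fall between 90 and 95%, against 29.7% of the narrower peaks.

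The level varied among the domains more with CpG density than with width. In 4 equal groups of 513 domains, from the fewest to the most CpGs per kb, the run 2 level was 84.3%, 86.8%, 89.2% and 89.7%. By width it was 86.9% for 5 to 6 kb, 88.2% for 6 to 8 kb, 88.8% for 8 to 10 kb, 88.8% for 10 to 20 kb and 88.6% for 20 kb or more. Across the 2052 domains the Pearson correlation of level was 0.21 with CpG density and 0.0594 with width. All of these points share 1 library.

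At single CpGs with at least 5 calls in run 2, 85.0% of 61406 sites were methylated in 80% or more of calls, and 55.9% in every call. Between 20 and 80% lay 12.1%, and 1731 sites (2.82%) were at 20% or below. In the narrower peaks 4.25% of such sites were at 20% or below. Of the 185754 CpGs in the domains, 7.83% had no call in any of the 8 bisulfite libraries, against 56.5% in the tiles. Per domain this share ran from 0 to 48%, with a median of 6.57%, and nothing is known of methylation at those CpGs.

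The widest domain, chr10:83403887-83467831, covered 63945 bp with no annotated gene, and 94.8% of its 6684 run 2 calls were methylated (run 1, 94.9%). The nearest protein-coding gene, Aldh1l2, lay 19.6 kb away. The next widest was chr18:74329796-74379020 over Cfap53, a gene for a cilium protein, with 79.1% of 2045 calls. The third, chr5:145649946-145693681, ended 0.367 kb from the cytochrome P450 gene Cyp3a41a and had 89.2% of 3991 calls. The domain chr3:93826876-93860250, which reaches into Tdpoz3, had 83.5% of 2360 calls, and chr7:26329937-26362845, 1.84 kb from Nlrp9c, had 91.7% of 1515 calls. So the widest stretches spanned the range of typical levels, from 79.1 to 94.8%, and 3 of these 5 touched no gene. In run 1 the 5 levels were 94.9%, 80%, 86.9%, 85.5% and 93.3%.

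The members nearest above the width limit, at 5001, 5005 and 5006 bp, had 85.3%, 91.7% and 93.6%. The peaks nearest below it, at 4999, 4997 and 4995 bp, had 86.8%, 92.4% and 74.3%. The median width was 7032 bp with quartiles of 5811 and 9376 bp, and 38 domains reached 20 kb.

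From the edge to the centre, methylation increased by a few points. Each domain was divided into 10 equal parts and mirrored parts were pooled. The run 2 level was 85.9% in the outermost part (85.71 to 86.12%), 88.2% in the next, then 88.8%, 88.8% and 89.1% at the centre (88.93 to 89.24%). Run 1 went from 85.2 to 88.8%. Outside, the level was 87.6% within 1 kb of the edge and 82.9% at 4 to 5 kb. The outermost part was thus lower than both its neighbours. In the narrower peaks the order was the opposite, with 86.7% in the outermost part and 85.2% at the centre.

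**Figure D2:**
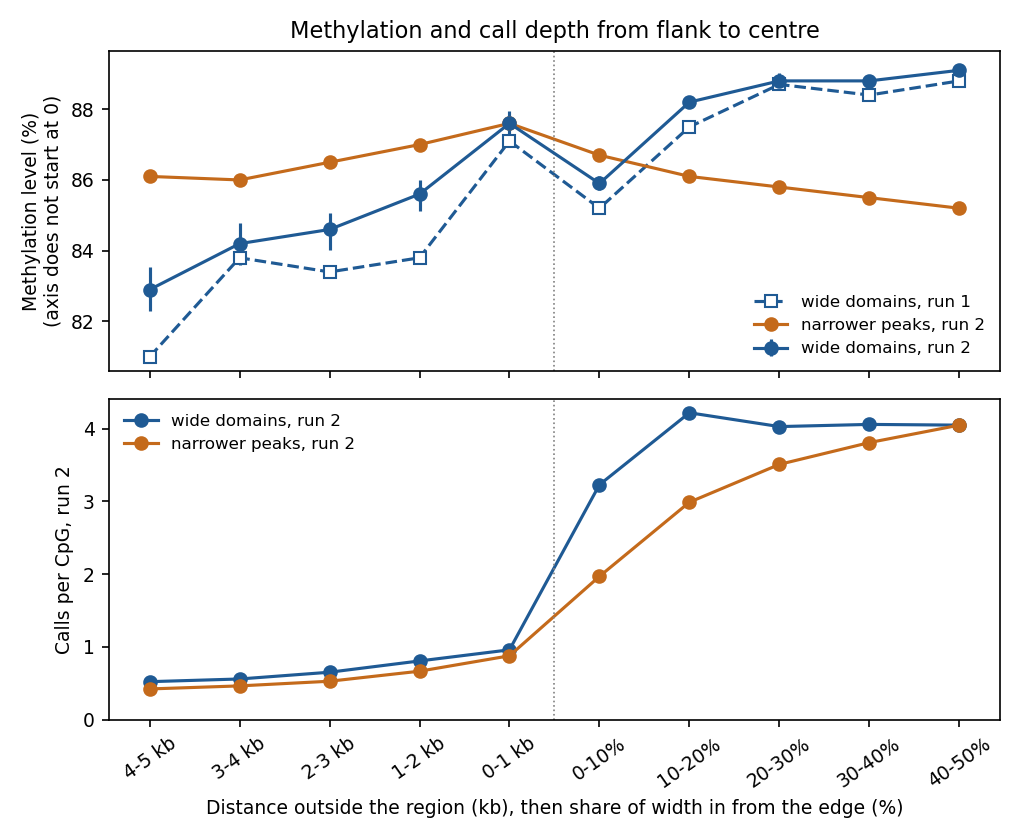
Methylation level (upper panel, percent) and calls per CpG (lower panel) from 5 kb outside to the centre of the region. Bars are Wilson 95% intervals for the wide domains in run 2. The level in wide domains reaches 89.1% at the centre, while calls per CpG go from 0.96 just outside to 3.23 in the outermost part and 4.05 at the centre.

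The dip at the edge was deepest in few domains. In the 100 domains that overlap a RefSeq promoter, the outermost part had 62.5% of 8736 run 2 calls methylated (61.4 to 63.5%), the next part 78.7% and the centre 85.5%. In the 1952 domains that overlap none, the outermost part had 87.9% of 101180 calls (87.7 to 88.1%) and the centre 89.4%. Run 1 gave 58.9% and 87.5% for edge and centre in the first set, and 87.8% and 88.9% in the second.

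Domain by domain, the outer 2 of 10 parts at each end were compared with the middle 4 by Fisher's exact test. Benjamini-Hochberg adjustment ran over all H3K9me3 peaks tested. The test compares CpG calls of run 2 and not replicate samples. It treats calls as independent, which calls on 1 fragment are not. Adjusted p-values of this and the later Fisher tests can thus be too small, and the shares called too high. Of 2014 domains with at least 10 calls in both parts, 133 (6.6%) had higher edges and 175 (8.69%) lower edges at an adjusted p under 0.05. Among all 9758 peaks tested, 4.25% had higher and 6.12% lower edges. The domains tested had more calls per part than the peaks as a whole, and the part of depth in these shares was not tested. The median difference of edge minus centre was -0.255 points over the domains, and 978 were above 0 against 1031 below. Pooled over all domains, the edges had 87.3% and the centres 88.9%, with the edges lower on 16 of 19 chromosomes in run 2 and on 17 in run 1. The 3 largest differences with lower edges were in domains with a promoter. Edge values pool both ends, while the promoter printed above lay near 1 end of each of these domains. It gave 299 of the 445 edge calls at Trim24, 64 of 162 at Gm3325 and 81 of 155 at Actr10. The 2 ends were not compared. At Trim24, a gene for a transcriptional cofactor, the edges of chr6:37870254-37882018 had 7.87% of 445 calls and the centre 91.4% of 418 (Fisher's exact, adjusted p = 1.63e-150). At Gm3325 the edges of chr13:62010979-62016448 had 19.1% and the centre 95.1% (Fisher's exact, adjusted p = 3.89e-35). In chr12:70932189-70938131, at Actr10, a gene for a dynactin subunit, they had 21.3% and 90.5% (Fisher's exact, adjusted p = 5.02e-08). The largest difference in the opposite direction was in chr1:44327997-44337019, which touches no protein-coding gene, with edges at 97.7% and the centre at 23.1% (Fisher's exact, adjusted p = 9.22e-15). It was followed by chr12:65033816-65039235, where the promoter of the splicing gene Prpf39 lies inside, with edges at 93.7% and the centre at 31.5% (Fisher's exact, adjusted p = 1.15e-24).

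Against the 5 kb on each side, 155 of 2013 domains (7.7%) were higher and 67 (3.33%) lower by the same test. Over all 18155 peaks tested, 3.88% were higher and 7.84% lower than their flanks. Among narrower H3K9me3-only peaks 3.53% were higher and 5.23% lower, and among wide peaks touching another mark 3.88% and 29.5%. The domains tested had a median of 286 calls, against 59 over all peaks, and the part of depth in these shares was not tested. The pooled level was 88.3% in the domains and 85.5% in their flanks, while the median difference over domains was 0.488 points. The largest differences were at domains beside an unmethylated flank. In chr10:42279848-42287482, 3.15 kb from Foxo3, a gene for a forkhead transcription factor, the domain had 91.4% and the flanks 15.3% of 98 calls (Fisher's exact, adjusted p = 1.08e-48). In chr14:100271139-100282385, within Klf12, a Kruppel-like factor gene, the values were 81.3% and 8.03% (Fisher's exact, adjusted p = 3.29e-51). The Prpf39 domain was the reverse, at 42% against 91.3% in its flanks (Fisher's exact, adjusted p = 9.18e-14).

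CpG density was higher in the domains than in the genome around them. The median was 10.6 CpGs per kb (quartiles 7.52 and 13.8), against 9.36 in narrower H3K9me3-only peaks, 9.17 in wide peaks touching another mark and 6.5 in tiles. The domain median was above the tile median on 19 of 19 chromosomes and above that of the narrower peaks on 18. Only 60 domains (2.92%) passed 20 CpGs per kb, against 7.94% of the narrower peaks, so the domains had the higher median but fewer dense cases. The densest was chr5:109549140-109557556 at the cytokine receptor gene Crlf2, with 39.8 CpGs per kb and 59.9% of 1148 calls methylated. Next came chr10:79734571-79743257 over the ion channel gene Hcn2 and the mitochondrial RNA polymerase gene Polrmt (39.7 per kb, 91.7%) and chr1:183086302-183091459 within Disp1 (37.6 per kb, 93.7%). The sparsest, chr1:8269957-8276533, had 9 CpGs in 6577 bp, with 28 of 30 calls methylated (93.3%).

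**Figure D3:**
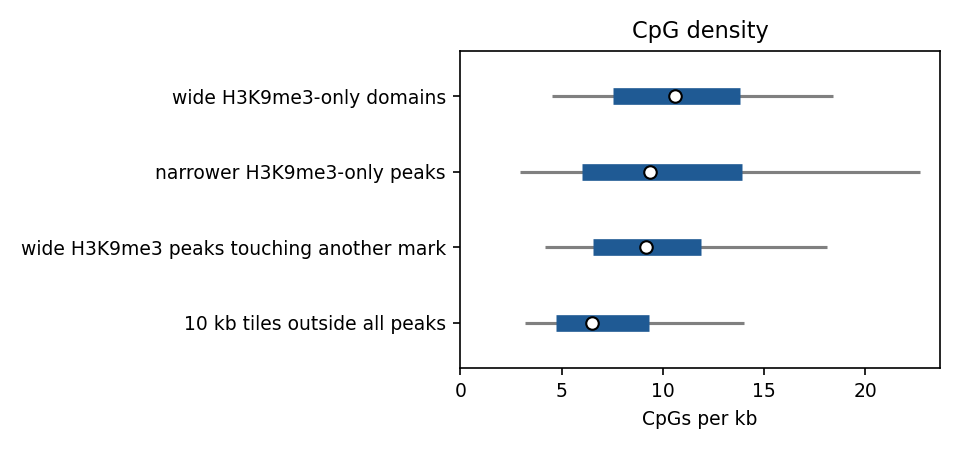
CpGs per kb (x axis) for each class of region. Dots are medians, thick bars the quartiles and thin lines the 5th to 95th percentiles. The wide domains have a median of 10.6 per kb and the tiles 6.5.

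The domains were spread over every autosome, at 0.854 per Mb overall and 0.702% of the span. Chromosome 17 had the most per Mb (1.25), followed by chromosome 13 (1.14) and chromosome 1 (1.04, 201 domains), and chromosome 14 the fewest (0.443), a range of 2.82-fold. The number of domains per Mb varied over the 19 chromosomes with that of narrower peaks (Pearson r = 0.887, given as a description of 1 set of peak calls). The pooled run 2 level was lowest on chromosome 12 (83.6%) and chromosome 14 (85.1%), and highest on chromosome 10 (90.4%). Chromosome 12 was the exception among the 19, where the domains lay below the narrower peaks (85.7%).

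**Figure D4:**
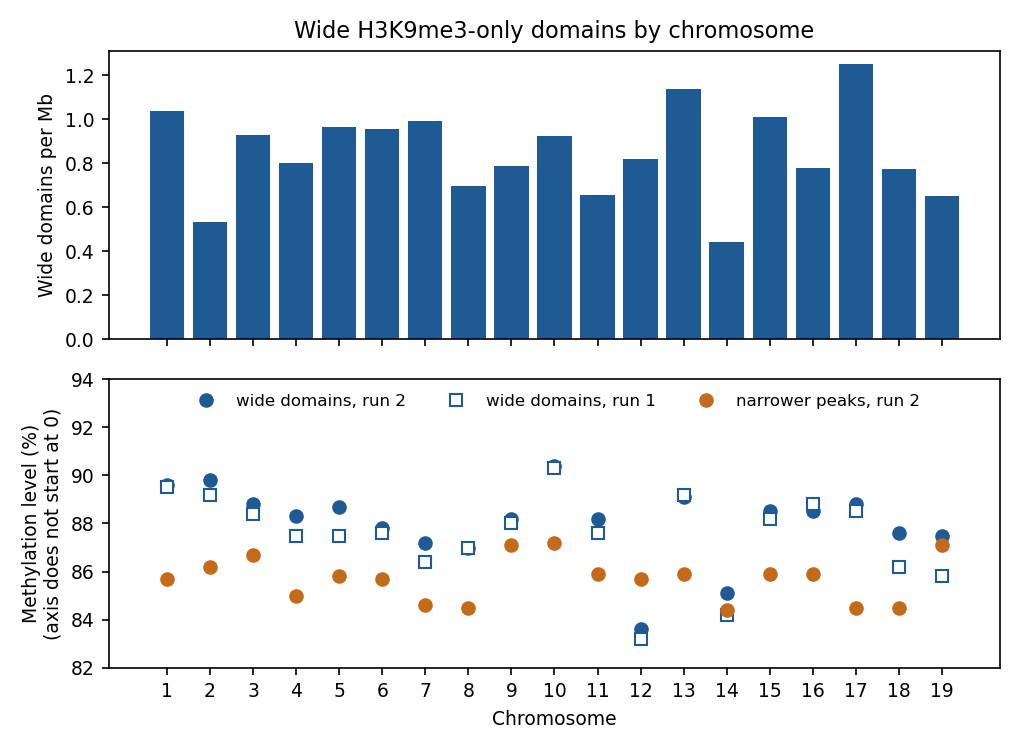
Wide H3K9me3-only domains per Mb (upper panel) and methylation level in percent (lower panel) for chromosomes 1 to 19. Filled blue points are the wide domains in run 2, open squares in run 1, and orange points the narrower H3K9me3-only peaks in run 2. The domains run from 0.443 to 1.25 per Mb.

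Within chromosomes many domains lay near another, although no expected spacing was computed. Of the domains, 293 had another within 10 kb, and whether such neighbours are parts of 1 broader region was not tested. The median distance to the nearest other domain was 153.8 kb, 42.7% had one within 100 kb, and 14.8% had none within 1 Mb. Of 2413 windows of 1 Mb, 1346 held no domain and 66 held 5 or more, and these 66 held 425 domains (20.7%). The fullest were chr5:104000001-105000000 and chr7:42000001-43000000 with 12 domains each, at run 2 levels of 92.5% and 86.6%. Windows chr5:145000001-146000000 and chr13:62000001-63000000 had 11 each, at 88.8% and 85.0%, and chr12:20000001-21000000 had 10 at 77.2%. Of the zinc finger genes described below, Zfp951 lies in the first of these windows and Zfp934 in the fourth.

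Most domains were found in every H3K9me3 peak list. A peak lay in 97.3% of them in run 1, in 99.0% in run 2 and in 94.3% without bisulfite, and 1891 (92.2%) had one in all 3 lists, against 35.6% of the narrower peaks. The domains come from the unified H3K9me3 list, which belongs to these same samples. A peak in the single lists is therefore largely built in and is not independent support. Wide intervals are also easier to hit, so these shares are not compared further. The extent did depend on the list: peaks of run 2 covered a median of 100% of a domain's width, those of run 1 61.3% and those without bisulfite 56.1%. In run 1, 33.4% of domains were split into 2 or more peaks, against 1.36% in run 2. The width of 5 kb or more thus rests largely on the run 2 list.

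The domains lay mostly away from genes. Of the 2052, 1311 (63.9%) touched no gene of the RefSeq table, and 293 (14.3%) lay wholly in a protein-coding gene. Protein-coding genes held 16.5% of the domains' bases, against 40.9% of the autosomal span. The domains touching no gene had a level of 88.8% in run 2 and those wholly in a protein-coding gene 89.4%. In all, 391 of 20665 protein-coding genes (1.89%) were touched, 40 were covered over at least 50% of their length and 12 lay wholly inside. Longer genes are touched more easily: the touched ones had a median length of 68.2 kb, against 17.5 kb for all.

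Zinc finger genes, many of which encode KRAB proteins, were touched in 27 of 416 cases (6.49%), against 1.89% of all protein-coding genes. Their median length of 17.4 kb was close to that of all protein-coding genes. Zfp934 had 25.5 kb in 1 domain (85.5% of 1118 calls), and Zfp951 had 24.8 kb in 4 domains (91.2% of 1094 calls). The 35 domains touching a zinc finger gene had a level of 85.1% in run 2 (84.49 to 85.67%) and 83.8% in run 1. Their median over domains was 91.1% (quartiles 84.5 and 93.4%), above the 89.8% of all domains, so the pooled level and the median differ in direction. Killer cell lectin-like genes, which encode receptors of natural killer cells, were touched in 3 of 29 cases (10.3%), with 9.7 kb of Klrb1a at 87.7%. Cytochrome P450 genes were touched in 4 of 99 cases (4.04%), all of the Cyp2c cluster of liver enzymes, with 9.98 kb of Cyp2c67 at 90.5%. Of 1104 olfactory receptor genes 5 (0.453%) were touched, and of 354 vomeronasal receptor genes 3 (0.847%). These genes are short, with median lengths of 0.95 and 0.962 kb. Of their bases 0.616% and 0.551% lay in domains, against 0.285% for all protein-coding genes and 0.702% for the autosomal span. The most covered were Olfr112 (6.31 kb), Olfr212 (4.22 kb), Vmn2r79 (12.3 kb) and Vmn2r1 (7.11 kb). Domains touched none of 57 clustered protocadherin, 73 defensin or 22 glucuronosyltransferase genes. With 1.89% of all protein-coding genes touched, groups of this size can hold few or none. Of 20 genes active at the 2-cell stage, Tdpoz4 lay wholly inside (72.7% of 44 calls) and Tdpoz3 was touched. Pseudogenes were touched in 160 of 9496 cases (1.68%), near the 1.59% of all genes. Of the pseudogenes 94 (0.99%) lay wholly inside, against 0.306% of all genes, but they are shorter, with a median of 0.914 kb against 6.28 kb. A list of 22 genes for H3K9 methylation, DNA methylation or demethylation and related chromatin factors was also checked. Only Atf7ip, a partner of SETDB1, was touched, over 966 bp, where 1.89% of all protein-coding genes were touched. Reads from members of such families can map to more than 1 copy, so single values in them are uncertain.

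The protein-coding genes with the most covered bases were Cfap53 with 37.2 kb in 2 domains (79.1%), Gm3325 with 28.3 kb in 3 domains (81.8%) and Dnah7a, a gene for an axonemal dynein chain, with 28.2 kb in 3 domains (84.1%). Desi2 had 25.3 kb in 2 domains at 93.0%. Over the 20 protein-coding genes with the most covered bases, the level in the covered part ran from 79.1 to 94.1% in run 2. Genes wholly inside were short, such as Nnat, the imprinted neuronatin gene (92.1% of 554 calls), the predicted gene Gm9573 (84.7%), the olfactory receptor gene Olfr112 (92.4%), Ly6g, a neutrophil surface antigen gene (87.5%), and the chemokine gene Ccl26 (91.9%).

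Promoters were rare in the domains and, pooled, less methylated than the DNA around them. Only 113 of 31396 RefSeq promoters on the autosomes (0.36%), of 96 genes, lay wholly inside. Pooled over non-overlapping stretches, 40.9% of 4377 run 2 calls in them were methylated (39.5 to 42.4%), against 84.2% of 40666 calls in the rest of the 92 domains that hold them. For the 27 stretches with 10 or more CpGs the level was 33.1% (31.5 to 34.7%) in run 2 and 32.1% in run 1, against 79.1% in the rest of their domains. With fewer than 10 CpGs it was 66.7%. The promoters were divided: of the 71 with at least 10 calls, 24 were under 50% and 37 over 80%, and the median was 85.7%.

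The promoters printed above show both ends. At Actr10, 0 of 81 run 2 calls were methylated, which allows a level of up to 3.7% at 3 counts of the total (Wilson upper limit 4.53%), and run 1 had 2.63% of 38 calls. At Trim24 the level was 0.334% of 299 calls in run 2, while run 1 had 0 of 51. Ptpn1, which encodes a protein tyrosine phosphatase, had 0.826% of 121 calls in run 2, while run 1 had 3.57% of 28. Gm3325 had 0 of 64 calls in run 2, which allows up to 4.69% at 3 counts (Wilson upper limit 5.66%), although its promoter has few CpGs. The limits and intervals of single promoters treat calls as independent. Calls on 1 fragment are not, and the number of fragments is not known, so the true limits can be wider. The Zfp629 promoter was intermediate, with 39.1% of 115 calls in run 2, while run 1 had 25.6% of 43. In contrast, Nnat had 95.8% of 71 calls in run 2 (88.3 to 98.6%), while run 1 had 88.2% of 34. Other low promoters were those of Dld, for a mitochondrial dehydrogenase subunit (3.28%), Klhl9 (4.67%), Orc2, for a subunit of the origin recognition complex (5.71%), Chfr, for a mitotic checkpoint ubiquitin ligase (7.18%), and Zfp790 (8.86%). That of Prpf39 had 12.1% and that of Atf7ip 35.5%. In run 1 each of these promoters was also under 40%. Of 2 motifs searched on either strand, TGCCGC was in 7.96% of the promoters in domains and in 11.6% of all RefSeq promoters, and TATAAA in 15.0% and 13.6%, without a test of the difference.

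CpG density alone did not go with low methylation. The domains were cut into windows of 500 bp. Windows with 21 or more CpGs and no RefSeq promoter had 89.3% of 45600 run 2 calls methylated (504 windows, 89.0 to 89.6%), whereas those overlapping a promoter had 41.8% of 4310 (24 windows, 40.4 to 43.3%). With 11 to 20 CpGs the levels were 90.1% and 65.5%, and with 1 to 5 CpGs 86.6% and 85.1%. Run 1 gave 88.2% and 41.5% in the densest windows. Windows with at least 10 calls and a level under 20% also occurred without a promoter, in 59 of 7201 with 1 to 5 CpGs (0.819%) and 7 of 498 with 21 or more (1.41%), against 10 of 24 of the densest windows with a promoter. The cut-offs of this comparison were chosen after the values of the promoters had been seen.

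**Figure D5:**
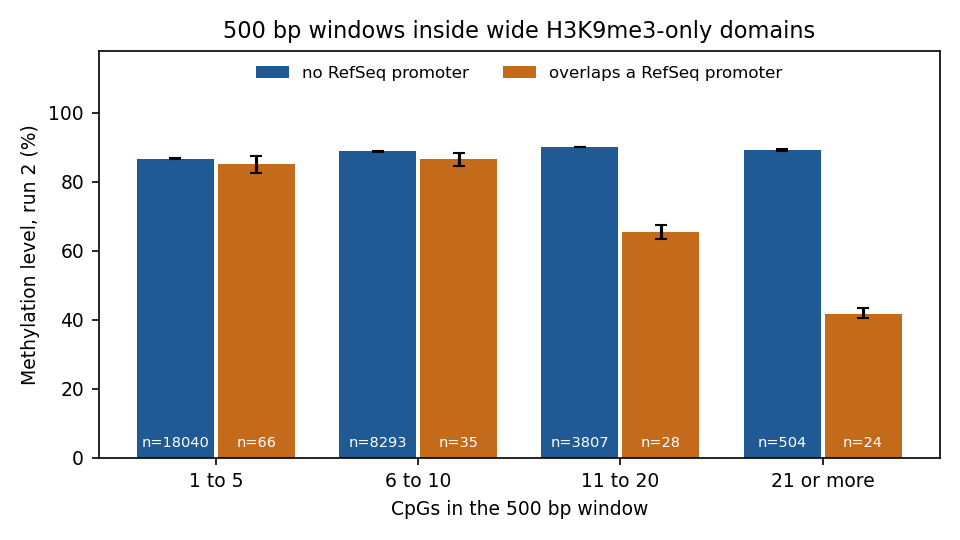
Methylation level in H3K9me3 run 2 (y axis, percent) of 500 bp windows inside the wide domains, by CpGs per window (x axis), without (blue) and with (orange) an overlapping RefSeq promoter. Bars start at 0, error bars are Wilson 95% intervals and n is the number of windows. Windows without a promoter lie between 86.6 and 90.1%, and those with a promoter fall from 86.5% to 41.8% in the densest class.

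Promoters with 10 or more CpGs were more frequent among the least methylated domains. Of the 13 domains under 50%, 6 (46.2%) held such a promoter, against 8 of 91 (8.79%) between 50 and 70% and 10 of 1783 (0.561%) at 80% or more. With promoters of any CpG number counted, it was 7 of the 13. A domain's level includes the calls in its promoter, so the relation is partly built in. At Actr10 the promoter gave 81 of the 188 calls, with 0 methylated. Among the 6 were the domains of Actr10 (34.0% of 188 calls), Zfp790 (35.9% of 287), Prpf39 (42% of 605), Klhl9 (48.0% of 928) and Trim24 (49.3% of 892). The other 7 held no promoter with 10 or more CpGs. The least methylated of these, chr7:52160952-52167106, had 35.8% of 165 calls in run 2, while run 1 had 30.3% of 99, touched no gene and lay 145.2 kb from the nearest protein-coding gene. It was poor in CpGs, with 4.39 per kb, and had 6.11 calls per CpG.

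The libraries of the other marks had few calls in the domains. The H3K27me3 library from 250000 cells had 18343 calls, 0.0987 per CpG, and 83.8% of them were methylated (83.22 to 84.29%). That from 100000 cells had 82% of 10297 calls. H3K4me1 run 2 had 55.0% of 9532 calls (54.01 to 56.01%) and run 1 53.2% of 4703. In the tiles the same libraries stood at 74.0% for H3K27me3 from 250000 cells and at 50.3% for H3K4me1 run 2. Both libraries therefore had higher levels in the domains than in the tiles, as the H3K9me3 library did.

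At CpGs called in both libraries, 627 domains had 10 calls or more in H3K9me3 run 2 and in H3K27me3. By Fisher's exact test with Benjamini-Hochberg adjustment, 6 (0.957%) were higher in H3K9me3, against 3.86% of all peaks tested, and 0 were lower, against 0.093%. Among narrower H3K9me3-only peaks 2.58% were higher and 0.0922% lower. At an unadjusted p under 0.05 there were 30 domains. The median difference was 0.235 points. The largest was in chr11:22966319-22973510 within Commd1, which holds the imprinted retrogene Zrsr1, at 89.5% of 286 calls in H3K9me3 and 38.8% of 67 in H3K27me3 (Fisher's exact, adjusted p = 2.51e-15).

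Against H3K4me1 run 2, 45 of 266 testable domains (16.9%) were higher in H3K9me3 and 0 lower, where 21.7% and 0.0477% of all peaks were. The share of all peaks includes those touching another mark. Of the wide peaks touching another mark 51.0% were higher, and of the narrower H3K9me3-only peaks 13.3%. At an unadjusted p under 0.05 there were 69 domains. The median difference was 11 points, and at the shared CpGs of the testable domains the pooled H3K9me3 level was 65.0% and the H3K4me1 level 47.6%. The largest differences were in chr17:12741208-12746722 within Igf2r, which holds part of the imprinted noncoding RNA gene Airn (95.6% of 90 against 18.2% of 33 calls; Fisher's exact, adjusted p = 1.87e-15). In chr12:74124470-74130086, within the synaptotagmin gene Syt16, the values were 88.4% and 12.5% of 16 calls (Fisher's exact, adjusted p = 7.43e-09). At Commd1 and Zrsr1 they were 90% and 19.1% (Fisher's exact, adjusted p = 1.27e-36).

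Of the 2052 domains, 6 overlapped one of 28 imprinted genes listed after these values were seen, genes of which only 1 parental copy is active and at which the silent copy is often the methylated one. Their levels in H3K9me3 run 2 and run 1 were 94 and 92.4% at Nnat, 92.2 and 92.9% at Mest, 87.2 and 91.1% at Plagl1, 90.7 and 89.0% at Commd1 and Zrsr1, 93.2 and 93.4% at Peg13, and 95.6 and 95.7% at Igf2r and Airn. All lay near or above the domain median of 89.8%. The 6 domains touched 8 of the 28 listed genes, against 1.59% of all genes. Because the list was written after the values were seen, this share is no test of imprinted genes. In H3K4me1 run 2 the levels were 12.5% of 24 calls at Plagl1, 18.1% of 94 at Commd1 and Zrsr1 and 13.6% of 44 at Igf2r and Airn, while the other 3 domains had fewer than 10 calls. In H3K27me3 from 250000 cells, the level was 44.4% of 18 calls at Plagl1 and 38.8% of 67 at Commd1 and Zrsr1. It was 100% of 15 at Igf2r and Airn, 91.2% of 34 at Nnat, 92.3% of 39 at Mest and 96% of 50 at Peg13. Deposited calls are not split by parental copy.

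The domain at Mest, chr6:30730005-30742925, also holds a microRNA hairpin, Mir335, 1 of 4 among 919 RefSeq hairpins on the autosomes that lay in domains. Its mature products are shown with the seed, bases 2 to 8, in capitals since it is the hairpin in a domain at an imprinted gene.
mmu-miR-335-5p: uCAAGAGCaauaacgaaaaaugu
mmu-miR-335-3p: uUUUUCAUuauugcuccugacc
The hairpin held 4 CpGs, with 87.5% of 8 run 2 calls methylated, close to the 92.2% of 1229 calls in the whole domain. The other hairpins were Mir6241, in a domain at 84.1%, and Mir7217 and Mir7218, both in a domain of 14826 bp at 89.9%.

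As a check of the cell type, 6 of 8 embryonic stem cell genes (Nanog, Zfp42, Dppa5a, Tdgf1, Esrrb and Pou5f1) overlapped a unified H3K4me1 peak, and Sox2 and Klf4 did not. Of 6 genes of other cells, Sox17, Pax6 and Gata4 also overlapped one, and 5 overlapped an H3K27me3 peak. None of the 14 overlapped an H3K9me3 peak.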

How the data were processed

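Deposited files were used as the authors made them. The table of 21908008 CpGs gives, for 8 bisulfite libraries, counts of methylated and of all calls, which the authors deposited without normalization; 0 count columns were left out. Peak lists hold positions only. Per the submitters' processing notes, the build was mm10 and the tools were cutadapt 1.12, Bismark 0.23.0, Bowtie2 2.3.0, HOMER 4.10.3 and bedtools 2.29.2, without their roles. All 395568 CGs in RefSeq GRCm38.p6 promoters fell on CpGs of the table. H3K9me3 runs 1 and 2 held 2012835 and 6355757 calls. The other libraries held 378056 to 37177077.

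A level is methylated over all calls, with a Wilson 95% interval. Fisher's exact test (two-sided, at least 10 calls per part, Benjamini-Hochberg over all H3K9me3 peaks tested, 0.05) compares CpG calls, not replicate samples. Several calls can lie on 1 read. On simulated data with 200 peaks changed by 40 points, it recovered 49.5% (edge against centre), 46.5% (domain against flanks), 39.5% (against H3K27me3) and 56.5% (against H3K4me1) of them. Of the peaks called, 4.81%, 3.12%, 3.66% and 0.877% were false, in the same order. The simulation covered all H3K9me3 peaks tested, not the domains alone, and drew calls independently. Recovery in the domains and the effect of linked calls were not tested. Numpy 2.4.6, pandas 2.3.3 and scipy 1.17.1 were used.

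Domains, gene lists and tests were chosen with earlier results of these data known, and the promoter, window and imprinted-gene analyses after the values were seen. Domains were named by extremes of width, level, CpG density and test difference, and genes by covered bases. Sequences at domain centres had been planned, and promoter sequences were shown instead because no genome sequence was used here. Alternatives changed call minimum, width limit, run, distance from other marks, edge and flank size, CpGs used, peak lists, promoter size and window size.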

Additional observations from a re-analysis of the deposited data

How the results depend on the processing

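Of 88 alternative values for 16 results, 63 stayed within their limit and 25 moved past it. The limit was 1.5 times for a percent, fold or count, 1 SD between runs for a level, and 1 SD between chromosomes for CpG density. A change of direction was not scored. For a level, run 1 always moves past the limit, which is drawn from the runs themselves. With run 1 in place of run 2, 2.36% of tested domains had higher and 3.27% lower edges, 5.15% were higher and 1.05% lower than their flanks, and 10% were higher than H3K4me1; the cause was not tested, and run 1 tested fewer domains. Run 1 also gave a pooled level of 87.9%, a median of 89.6%, 32.1% in promoters, and 41.5% and 88.2% in CpG-dense windows with and without a promoter. Against H3K27me3, the share higher was 0.417% with 5 calls, 3.53% with 20 calls, 0.49% for domains of at least 10 kb and 4.45% with all CpGs, and the share lower was 0.588% with 20 calls. Against H3K4me1, the share higher was 9.7% with 5 calls, 28.9% with 20 calls and 51.8% with all CpGs, where the libraries need not share sites. The pooled level was 88.7% as a mean of single-CpG levels and 88.8% at 10 kb or wider, both within 1 point of the 88.3% reported. Protein-coding genes touched fell from 391 to 94 at 10 kb or wider, and 40 were covered over at least 50%. Promoters read 47.3% when widened by 500 bp at each end and 12.3% with 20 or more CpGs, and windows of 1000 bp with 42 or more CpGs read 44.4% with and 84.8% without a promoter, alternatives chosen after seeing the data. No paired analysis was possible because the runs of a mark may be 1 library and no test ran across samples. Depth limits the comparisons with other marks, since 627 and 266 of 2052 domains had enough calls.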
